A study of Mus musculus with 4 samples.

Results

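The transcripts described here are those of the IL-18 and IL-33 receptor axis: Il18, Il18r1, Il18rap, Il18bp and Il1rl1, 5 of the 32285 genes counted. They were found by symbol and read in single-cell RNA libraries of lung and blood leukocytes. Female C57/Bl6 mice aged 6 to 8 weeks received 800000 B16F10 melanoma cells or saline into the spleen on day 0, followed at once by removal of the spleen. Every mouse, sham animals included, also carried a subcutaneous tumour that was started with 250000 B16F10 cells, and organs were collected on day 7. Lung and blood of each arm gave 1 library each, called here metastasis lung, sham lung, metastasis blood and sham blood, and values are given in that order. The labels name the intrasplenic arm as liver metastasis. The sources used here do not give how many mice stand behind a library, so no test across animals could be made, and every interval below covers counting error only.

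IL-18 is made as an inactive precursor that caspase-1 cleaves in inflammasomes, and the mature cytokine acts with IL-12 to draw interferon gamma from NK cells and T cells. It binds the receptor chain encoded by Il18r1, which then recruits the accessory chain encoded by Il18rap to signal through MyD88, while the secreted binding protein encoded by Il18bp holds IL-18 away from the receptor. IL-33 is an alarmin kept in the nuclei of stromal and epithelial cells, and its receptor ST2, encoded by Il1rl1, pairs with the shared chain IL1RAP on mast cells, basophils, type 2 innate lymphoid cells and a part of the regulatory T cells.

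The receptor genes lie next to each other on 1 strand. In GRCm38.p6, with RefSeq gene positions, Il1rl1 spans chr1:40404864-40465418, Il18r1 chr1:40465552-40500854 and Il18rap chr1:40515362-40551707, all on the plus strand. The end of Il1rl1 and the start of Il18r1 are 133 bases apart, and Il18r1 and Il18rap are 14507 bases apart. Il18 lies at chr9:50554700-50581841 on the plus strand, and Il18bp at chr7:102015074-102018232 on the minus strand. Overlaps with other genes were read from GENCODE gene spans, which differ from the RefSeq spans. By GENCODE, Bco2 and Tex12 on the opposite strand overlap Il18 over 355 and 4507 bases. The GENCODE span of Il18bp, chr7:102014885-102018690, is longer than its RefSeq span and overlaps 80 bases of Numa1 on the other strand. The sources used here do not say whether the counting used strand, and without strand the reads of such overlapping genes cannot be told apart.

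Start windows of the 3 receptor genes are shown because these neighbours had different patterns over the cell classes. Each runs on the plus strand of GRCm38.p6, from RefSeq: Il18r1 at chr1:40465419-40465670 (the second of 3 starts, with the bases before the end of Il1rl1 left out), Il18rap at chr1:40515112-40515411, and a pair of Il1rl1 starts at chr1:40429320-40429619 and chr1:40439379-40439678. Capitals mark letters that match, on either strand, a GATA motif (AGATAA, where T may stand first and G last), a T-box motif (GGTGTG), an ETS motif (AGGAAG) or a RUNX motif (TGNGGT); the T-box and RUNX letters can overlap.
Il18r1: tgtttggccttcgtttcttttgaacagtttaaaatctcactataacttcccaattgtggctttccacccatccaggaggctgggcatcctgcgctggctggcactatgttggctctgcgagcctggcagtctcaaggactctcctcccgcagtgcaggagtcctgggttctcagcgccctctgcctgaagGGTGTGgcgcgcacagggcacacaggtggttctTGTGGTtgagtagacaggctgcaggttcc
Il18rap: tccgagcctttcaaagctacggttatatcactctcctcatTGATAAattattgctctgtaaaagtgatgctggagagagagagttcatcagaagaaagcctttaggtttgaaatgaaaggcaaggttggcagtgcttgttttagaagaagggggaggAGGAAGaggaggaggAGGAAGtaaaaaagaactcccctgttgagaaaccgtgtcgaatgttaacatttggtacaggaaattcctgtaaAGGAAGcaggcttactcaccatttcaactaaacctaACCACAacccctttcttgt
Il1rl1, first start: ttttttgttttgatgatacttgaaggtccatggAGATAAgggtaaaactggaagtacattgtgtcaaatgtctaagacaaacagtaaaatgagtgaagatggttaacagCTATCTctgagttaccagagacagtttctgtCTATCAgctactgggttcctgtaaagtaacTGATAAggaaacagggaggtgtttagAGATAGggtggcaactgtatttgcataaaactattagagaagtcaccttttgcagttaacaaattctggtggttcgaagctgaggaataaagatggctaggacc
Il1rl1, second start: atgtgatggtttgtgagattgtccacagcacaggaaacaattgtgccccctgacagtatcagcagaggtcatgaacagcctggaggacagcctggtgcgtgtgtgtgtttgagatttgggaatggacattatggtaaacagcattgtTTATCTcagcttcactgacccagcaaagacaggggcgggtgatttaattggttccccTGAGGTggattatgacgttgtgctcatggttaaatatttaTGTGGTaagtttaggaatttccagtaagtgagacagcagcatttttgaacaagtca
The first Il1rl1 window shown held 5 GATA matches, and the second held 1 GATA and 2 RUNX matches. The RefSeq span of Il1rl1 begins upstream of both windows, at chr1:40404864, and no window at that base was read. The Il18rap window held 3 ETS, 1 GATA and 1 RUNX match, and the Il18r1 stretch 1 T-box and 1 RUNX match. The Il18r1 windows that are not shown held no match at the first start and 1 ETS and 1 RUNX match at the third. Of 32851 windows of 300 bases, 29.8% held a GATA match, 19% a T-box match, 35.4% an ETS match and 45.8% a RUNX match. At least 5 GATA matches stood in 0.0548% of the windows, and at least 3 ETS matches in 1.9%. A match describes the letters of a window and is not evidence of a bound site.

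The 4 libraries held 18115 to 36125 barcodes and between 112079231 and 132540945 unique molecular identifiers (UMIs, the counted transcripts), of which 43.7% to 78.6% were haemoglobin. After filters, 12969, 13443, 8483 and 12274 cells were kept, and pairs of libraries shared 109 to 316 barcodes. Cells were assigned to classes by fixed marker genes, none of which is among the 5 genes. The gates held 989, 1833, 44 and 232 NK cells, 1608, 4564, 493 and 2331 T cells, 1237, 50, 2202 and 430 neutrophils, and 302, 137, 278 and 352 monocytes. Macrophages came to 24 and 29 cells in lung, and basophils to 23, 8, 13 and 31 cells. Markers of NK cells, T cells, neutrophils and monocytes were all detected at 20 counts per 1000000 (CPM) or more in each gate, as were 9 and 11 of 12 macrophage markers in lung and at least 7 of 8 basophil markers. The type 2 innate lymphoid gate held 1 cell, and no mast cell was found. CPM are UMIs of a gene per 1000000 UMIs of the class without haemoglobin. They are not scaled to transcript length, so levels are compared between classes for 1 gene and not between genes.

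Il18, the ligand, was a transcript of lung macrophages first and of monocytes second. Macrophages held 50 UMIs in metastasis lung and 74 in sham lung, or 345 CPM (Poisson 95% interval 256 to 455) and 383 CPM (301 to 481), and 20 of 24 and 23 of 29 cells had an Il18 UMI. Monocytes stood at 26.3, 46.2, 39.7 and 26.7 CPM from 31, 25, 77 and 80 UMIs. The interval of macrophages lay apart from that of monocytes in both lung libraries. Neutrophils were at 12.4, 17.6, 4.62 and 12.5 CPM, with an interval that overlapped that of monocytes in sham lung alone of the 4 libraries. NK cells and T cells were at 1.43 CPM or less, and none of the 75 basophils of the 4 libraries had an Il18 UMI.

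Within monocytes, Il18 was higher in the cells with classical markers. Those with Ly6c2 or Ccr2 UMIs and none of Ace, Treml4 or Cd300e had 44.5, 46.5, 52.8 and 30.4 CPM, and those with the opposite marker pattern had 12.3, 26.8, 12.4 and 21.8 CPM. The counting intervals of the 2 subsets lay apart in metastasis blood and overlapped in the other 3 libraries. B cells had 10.2, 7.87, 9.87 and 18.95 CPM; in sham blood these were 637 UMIs in 393 of 7968 cells, or 80.1% of all Il18 UMIs of that library.

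**Figure D1:**
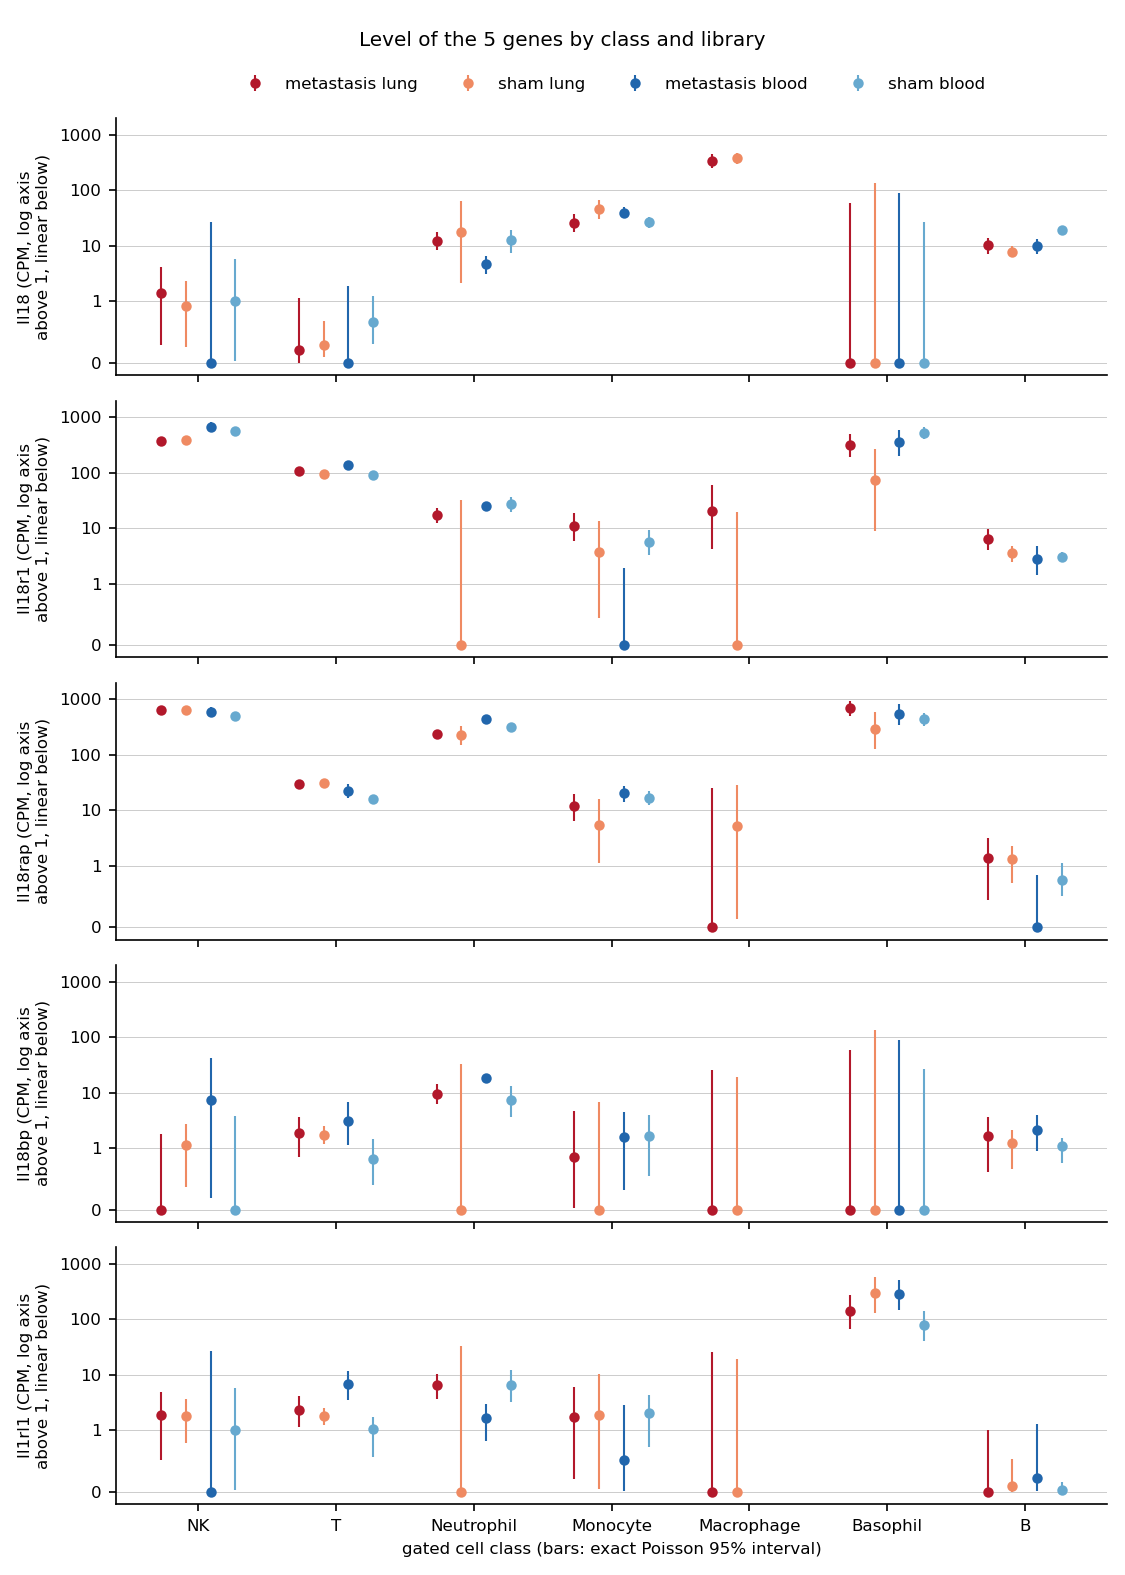
Levels of the 5 genes (CPM without haemoglobin, logarithmic above 1 and linear below) in each gated class and library, with exact Poisson 95% intervals from counting error. Macrophages lead for Il18, NK cells and basophils for Il18r1, the same 2 classes and then neutrophils for Il18rap, and basophils for Il1rl1; Il18bp stays under 20 CPM everywhere.

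Il18r1, the ligand-binding chain, was highest in NK cells and basophils and next in T cells. NK cells had 377.6, 392.7, 665.6 and 567.9 CPM from 792, 1711, 90 and 553 UMIs. Basophils had 318.5, 73.9, 358.9 and 523.3 CPM from 20, 2, 15 and 72 UMIs, so that sham lung rests on 2 counts from 8 cells. T cells had 105.9, 94.2, 138.4 and 92.1 CPM. In metastasis lung and sham blood the basophil interval overlapped that of NK cells, and T cells lay apart below both. Neutrophils were at 17.2, 0, 25.2 and 27.0 CPM, above the B cell level of 2.75 to 6.35 CPM in the 3 libraries with a count. The 0 in sham lung comes from 50 neutrophils, and 3 counts there would be 26.3 CPM. Monocytes had 11, 3.70, 0 and 5.67 CPM, and the 17 UMIs of sham blood came from 3 cells.

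Il18rap, the accessory chain, was high in NK cells and basophils as well, and it was also high in neutrophils. NK cells had 638.4, 632.7, 599.1 and 504.2 CPM from 1339, 2757, 81 and 491 UMIs. Basophils had 700.7, 295.5, 550.3 and 436.1 CPM from 44, 8, 23 and 60 UMIs. Neutrophils had 235, 228.3, 446.2 and 313.3 CPM from 588, 26, 2995 and 476 UMIs. T cells had 30.1, 31.6, 22.6 and 15.8 CPM, below neutrophils in all 4 libraries with no overlap of the intervals. Because neutrophils were many in metastasis blood, they gave 80.5% of all Il18rap UMIs of that library, while NK cells gave 75% in sham lung. The 9 NK markers summed to 18.8, 35.1, 0.149 and 11.2 CPM in the neutrophil gate.

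The share of cells with a UMI was read after thinning each cell to 1000 UMIs without haemoglobin, which left out 19, 27, 0 and 4 NK cells and 173, 8, 36 and 18 neutrophils as too shallow. Il18rap was found in 46.4%, 46.0%, 47.7% and 34.7% of NK cells and in 21.2%, 23.8%, 37.2% and 26.0% of neutrophils. B cells, taken as the background class, had it in 0.214%, 0.141%, 0 and 0.0252% of cells, where the 0 allows up to 0.183%. The neutrophil share was therefore far above the background share in every library. The exact binomial interval of metastasis blood neutrophils (35.1 to 39.2) lay above that of sham blood (21.8 to 30.5). T cells had Il18rap in 2.19%, 3.02%, 1.83% and 1.37% of cells. These T cell shares were below those of the erythroid gate in each library, which were 2.83%, 6.05%, 3.61% and 2.43%.

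Il18r1 was found in 31.1%, 32.1%, 40.9% and 36.8% of thinned NK cells and in 8.09%, 8.69%, 10.8% and 7.25% of T cells, against 0.589%, 0.283%, 0.305% and 0.151% of B cells. In neutrophils the share was 2.16%, 0, 2.31% and 2.91%, where the 0 allows up to 7.14%. Without thinning, the NK shares were 47.6%, 53.6%, 75% and 81.0% for Il18r1 and 68.3%, 70.8%, 75% and 81.0% for Il18rap, at median depths of 1909, 2246, 2733.5 and 3936 UMIs. B cells had medians of 1694, 2215, 2387.5 and 3460.5 UMIs and neutrophils of 1702, 1566, 2496.5 and 2984. The unthinned NK shares stood in the order of those depths. After thinning the range of the Il18r1 shares was narrower, while the Il18rap share was lowest in sham blood, where the unthinned one was highest.

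**Figure D2:**
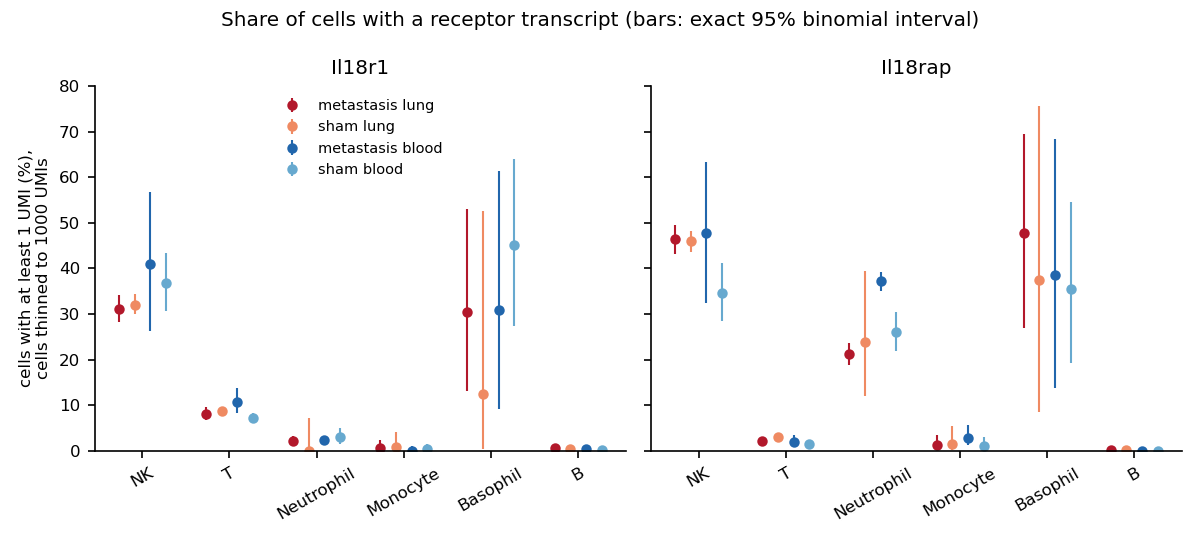
Share of cells with at least 1 UMI of Il18r1 (left) or Il18rap (right) after thinning to 1000 UMIs, by class and library, with exact binomial 95% intervals. Neutrophils stand between 21.2% and 37.2% for Il18rap and at 2.91% or less for Il18r1, and B cells stay under 1% for both.

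The balance of the receptor chains set T cells, NK cells and neutrophils apart, though not every class. NK cells held 1.69 (1.55 to 1.85), 1.61 (1.52 to 1.71), 0.90 (0.658 to 1.23) and 0.888 (0.785 to 1.00) Il18rap UMIs per Il18r1 UMI. In T cells the ratio was 0.284, 0.335, 0.164 and 0.172. In neutrophils it was 13.7 (10 to 19.1), at least 6.56 (26 UMIs against 0), 17.7 (15.2 to 20.8) and 11.6 (8.43 to 16.4). The intervals of T cells, NK cells and neutrophils did not overlap in any library, in rising order of the ratio. Basophils stood at 2.2, 4, 1.53 and 0.833, with intervals that overlapped those of NK cells in every library. Monocytes stood at 1.08 in metastasis lung and 2.94 in sham blood. In metastasis blood they held 39 Il18rap UMIs against 0, a lower limit of 10.1 that does not set them apart from neutrophils. In NK cells and in T cells the ratio of both lung libraries lay above that of both blood libraries with no overlap of the intervals, where tissue and cell isolation cannot be told apart. Since transcript length and capture differ between these genes, the ratio is read between classes and not as a number of molecules of one chain over the other.

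**Figure D3:**
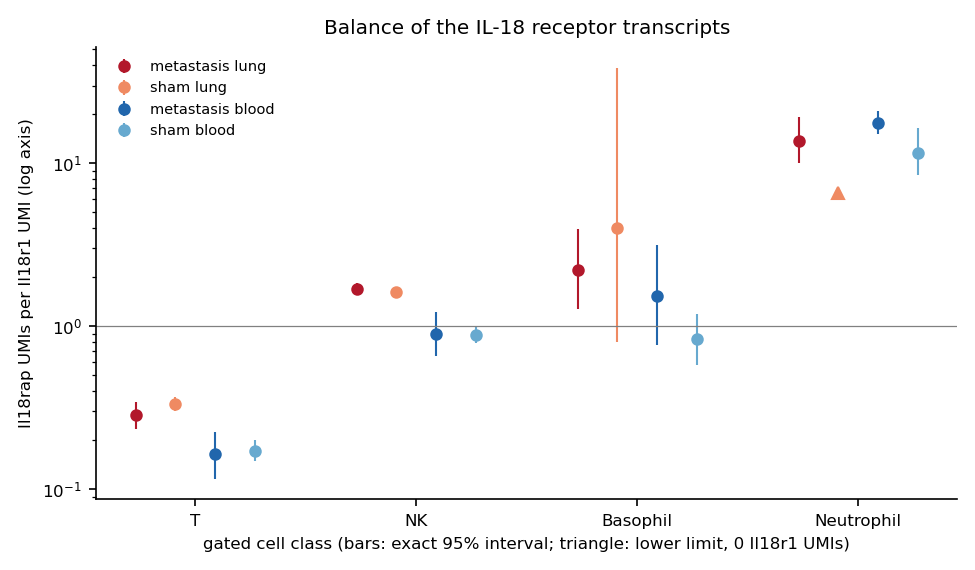
Il18rap UMIs per Il18r1 UMI (logarithmic axis) in T cells, NK cells, basophils and neutrophils of each library, with exact 95% intervals; the triangle is the lower limit for sham lung neutrophils, which had no Il18r1 UMI. The ratio is lowest in T cells (0.164 to 0.335) and highest in neutrophils (11.6 to 17.7 where Il18r1 was counted).

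Detection of both chains in 1 cell followed the single shares in NK cells. After thinning, 15.3%, 15.3%, 25% and 14.0% of NK cells had both UMIs, against products of the single shares of 14.4%, 14.7%, 19.5% and 12.8%. In T cells the joint shares were above the product: Il18rap was found in 6.98%, 7.87%, 3.77% and 4.14% of T cells with an Il18r1 UMI and in 1.77%, 2.56%, 1.60% and 1.16% of the others. These T cells with both UMIs were 9, 31, 2 and 7 in number, and the interval of the joint share took in the product in metastasis blood. Thinned to 500 UMIs, 1, 13, 1 and 2 such cells were left, and the interval took in the product in every library but sham lung. In neutrophils 6, 0, 16 and 5 cells had both, and of basophils 4, 1, 2 and 7 cells. Cells of 1 library are not replicates, and no test was made.

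Within the T gate, Il18rap was highest in gamma delta T cells. These cells, with Trdc, Tcrg-C1 or Tcrg-C2 UMIs, had 105.8, 108.2, 51.3 and 80 CPM. CD8 T cells, with Cd8a or Cd8b1 UMIs, had 30.6, 25.3, 23.9 and 18.4 CPM of Il18rap, with intervals below those of gamma delta T cells in every library but metastasis blood. CD4 T cells had 12.2, 11.2, 0 and 3.45 CPM, from 8, 28, 0 and 10 UMIs, and the exact Poisson interval of the 0 in metastasis blood reached 13.7 CPM. The CD4 interval lay below that of CD8 T cells in every library but metastasis lung. T cells with a Foxp3 UMI had 40.3, 16.5, 17.9 and 21.9 CPM from 2, 2, 1 and 7 UMIs, with intervals that overlapped those of gamma delta T cells in both metastasis libraries. Il18r1 differed less between the subsets. Gamma delta T cells had 182.8, 160.5, 246.3 and 246.8 CPM of Il18r1, and CD8 T cells had 98.7, 87.9, 144.3 and 104.8 CPM, with intervals that overlapped in metastasis blood alone. CD4 T cells had 96.3, 73.9, 78.1 and 59.7 CPM of Il18r1, with intervals below those of CD8 T cells in both blood libraries and overlapping them in both lung libraries.

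NK cells were split by Klrg1, a receptor of mature NK cells, and Cd27, which marks less mature ones. Il18rap stood at 750.2 and 702 CPM in lung NK cells with a Klrg1 UMI and at 433 and 399 CPM in those with Cd27 and no Klrg1 UMI, with no overlap of the intervals. In sham blood the values were 552.4 and 438.2 CPM, with intervals that overlapped. Il18r1 did not show that order, with 391.6 and 371.6 CPM in the Klrg1 cells and 370.2 and 425.3 CPM in the Cd27 cells of the lung libraries.

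**Figure D4:**
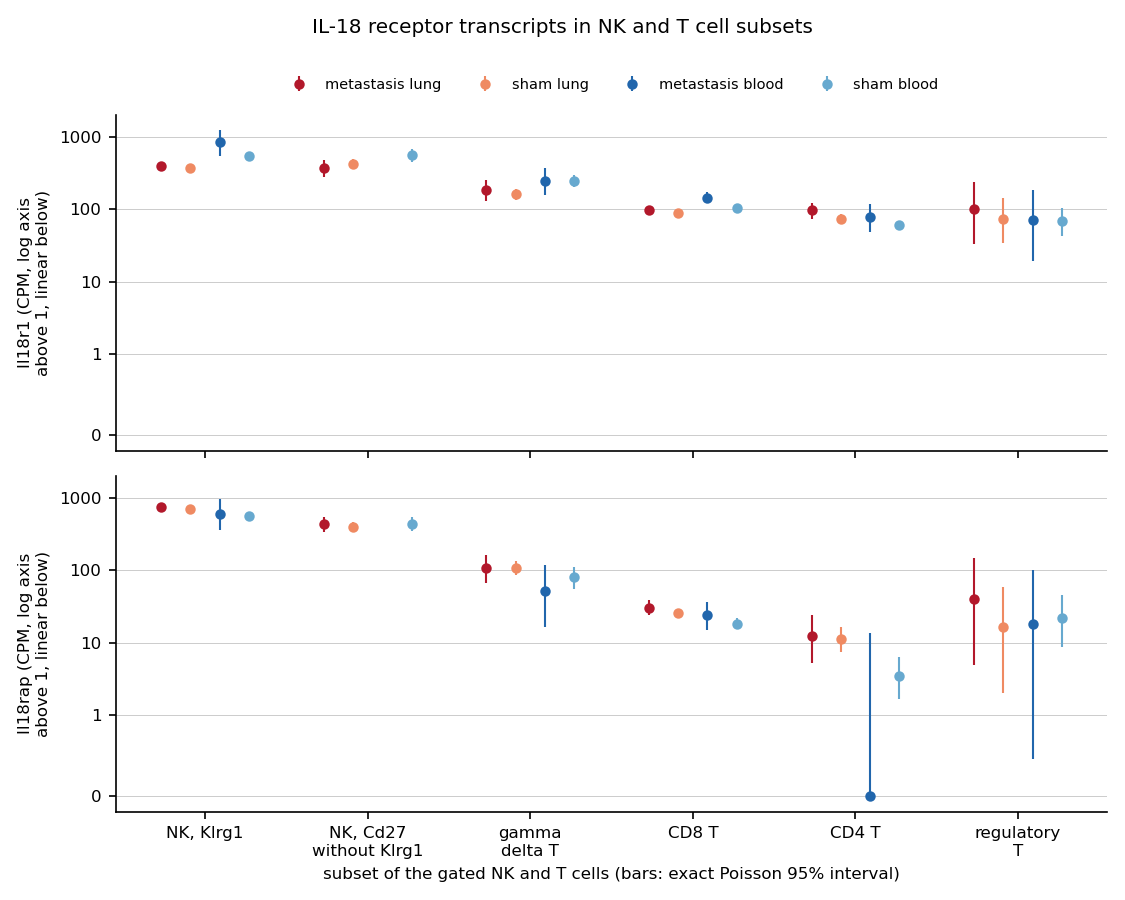
Il18r1 (top) and Il18rap (bottom) in NK and T cell subsets of each library (CPM, logarithmic above 1 and linear below, exact Poisson 95% intervals; subsets under 10 cells are not drawn). Il18rap runs from 0 to 12.2 CPM in CD4 T cells up to 750.2 CPM in Klrg1 NK cells, while Il18r1 spans a narrower range.

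Neutrophils were also split, by Ngp, a secondary granule gene that marks immature cells. An Ngp UMI was found in 617 of 1237, 15 of 50, 1193 of 2202 and 9 of 430 neutrophils. Il18rap stood at 217.8, 120.8, 413.7 and 426.6 CPM in cells with Ngp and at 268.9, 339.5, 511.4 and 309.7 CPM in cells without it. Both kinds of cell therefore had a point value over 100 CPM in every library, though those of Ngp cells rest on 15 cells in sham lung and 9 in sham blood. Platelet transcripts Pf4 or Ppbp were found in 0.485%, 0, 41.8% and 51.9% of neutrophils; Il18rap was at 478.6 and 301.8 CPM in the blood neutrophils with them and at 420.2 and 330.7 CPM in those without.

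Il18bp, the soluble inhibitor, was sparse, with 385 UMIs in all kept cells. Neutrophils had 9.59, 0, 18.2 and 7.24 CPM from 24, 0, 122 and 11 UMIs, and 3 counts in sham lung would be 26.3 CPM. T cells had 1.87, 1.74, 3.09 and 0.813 CPM, beside 1.07 to 2.07 CPM in B cells, and NK cells held 0, 5, 1 and 0 UMIs. Among neutrophils, cells with Ngp had 12.6 CPM of Il18bp in metastasis lung and 23.4 CPM in metastasis blood, from 21 and 105 UMIs. Cells without Ngp had 3.57 and 7.61 CPM from 3 and 17 UMIs. The counting intervals lay apart in metastasis blood and overlapped in metastasis lung. Sham blood neutrophils without Ngp had 6.79 CPM.

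Il1rl1, which encodes the IL-33 receptor ST2, was the sparsest of the 5, with 224 UMIs in kept cells, and its level was highest in basophils. Basophils had 143.3, 295.5, 287.1 and 79.95 CPM from 9, 8, 12 and 11 UMIs. T cells had 2.28, 1.80, 6.69 and 1.04 CPM, neutrophils 6.39, 0, 1.64 and 6.58 CPM, and B cells 0.23 CPM or less. The basophil interval lay above those of NK cells, T cells, neutrophils, monocytes and B cells in each library. Within T cells, those with a Foxp3 UMI, the marker of regulatory T cells, had 60.5, 98.8, 179.5 and 21.9 CPM. The counts behind these values were small, with 12 UMIs in 3 of 36 cells in sham lung, 10 UMIs in 2 of 14 in metastasis blood and 7 UMIs in 5 of 59 in sham blood.

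The other chains of the IL-33 pathway had their own classes. Il33, the ligand, was found at 223.9 and 292.7 CPM in the fibroblast gate of the lung libraries, from 17 and 49 UMIs, and at 7.43 and 57.1 CPM in the epithelial gate. It had no UMI in NK cells, neutrophils, monocytes, macrophages and basophils and 1 UMI in T cells. B cells held 1, 5, 3 and 12 Il33 UMIs, at 0.689 CPM or less, and the endothelial gate 1 UMI in each lung library. Il1rap, the shared signalling chain, was highest in neutrophils among the immune classes, at 546.6, 553.1, 754.6 and 953.6 CPM, with 31.9, 0, 191.4 and 218 CPM in basophils. Sigirr, an inhibitory member of the receptor family, was at 20.5, 14.9, 7.40 and 23.6 CPM in NK cells and at 3.29 CPM or less in neutrophils.

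Metastasis libraries were then set against sham libraries within each class. A gene was measured with at least 20 UMIs over the pair and called at 1.5-fold or more with a counting interval that left out equality, and the share of all measured genes called by that rule is given as background. In bulk sums of a class, fewer transcribing cells and less RNA per cell cannot be told apart. In lung NK cells, 0 of 2 measured genes were called (background 3.73%): Il18r1 differed by -0.06 (log2, -0.18 to 0.07) and Il18rap by 0.01 (-0.08 to 0.11). In lung T cells 0 of 4 were called (background 4.05%), and Il18r1 differed by 0.17 (0.02 to 0.31). The intervals of Il18r1 and Il18rap in lung NK cells and of Il18r1 in lung T cells leave out a 1.5-fold difference in either direction.

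In lung neutrophils 0 of 4 measured genes were called (background 7%), and the sham library held 50 neutrophils. Il18rap stood at 235 CPM in metastasis and 228.3 CPM in sham, a log2 ratio of 0.04 (-0.52 to 0.67). Il18r1 (43 against 0 UMIs) and Il18bp (24 against 0 UMIs) were measured through the metastasis library alone. In sham, 3 counts would be 26.3 CPM, above their metastasis levels of 17.2 and 9.59 CPM, so that depth could not show them as higher in metastasis. Il18 was not called in lung monocytes, at 26.3 against 46.2 CPM (-0.81, -1.62 to 0.01; background 6.42%), nor in macrophages, at 345 against 383 CPM (-0.15, -0.70 to 0.39; background 7.6%). In lung basophils both measured genes were called higher (background 16.4% in either direction and 8.51% higher). Il18r1 was at 318.5 against 73.9 CPM (2.11, 0.07 to 5.25; 20 against 2 UMIs) and Il18rap at 700.7 against 295.5 CPM (1.25, 0.14 to 2.54; 44 against 8 UMIs). These basophil values rest on 23 and 8 cells, and both genes reached 20 UMIs through the metastasis library, where they were higher. Il1rl1 pointed the other way, at 143.3 against 295.5 CPM, but with 9 and 8 UMIs it was not measured.

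In blood NK cells 0 of 2 were called (background 4.98%), with log2 ratios of 0.23 (-0.11 to 0.55) for Il18r1 and 0.25 (-0.11 to 0.59) for Il18rap from 44 and 232 cells. In blood T cells 2 of 3 were called higher (background 6.73% in either direction and 3.41% higher). Il18r1 was at 138.4 CPM in metastasis and 92.1 CPM in sham (0.59, 0.39 to 0.78), a ratio of 1.504 at the edge of the call, which 4 of the alternatives at that threshold did not reach. Il1rl1 was at 6.69 against 1.04 CPM (2.69, 1.48 to 3.89), from 13 UMIs in 5 cells and 14 UMIs in 9 cells, and 10 of the 13 came from 2 cells with a Foxp3 UMI. Il18rap, at 22.6 against 15.8 CPM (0.52, 0.01 to 0.99), was not called.

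In blood neutrophils 3 of 5 measured genes were called, 1 higher and 2 lower, in a comparison where 28% of all measured genes were called, 10.2% higher and 17.8% lower. Il18bp was higher, at 18.2 against 7.24 CPM (1.33, 0.44 to 2.37), Il18 was lower, at 4.62 against 12.5 CPM (-1.44, -2.31 to -0.53), and Il1rl1 was lower, at 1.64 against 6.58 CPM (-2.01, -3.38 to -0.61). The immature marker also differed between the arms, with an Ngp UMI in 1193 of 2202 metastasis neutrophils and 9 of 430 sham neutrophils. Its part in these ratios was not tested, and leaving out Ngp cells was an alternative chosen after seeing the data. Without cells that had an Ngp UMI, the ratio of Il18bp was 0.165 and that of Il18 was -0.264, both no longer called. That of Il1rl1 was -1.338 from 6 and 10 UMIs, under the 20 UMIs of a measured gene, so it could not be called either. Il18rap was at 446.2 against 313.3 CPM (0.51, 0.37 to 0.65), which is under 1.5-fold and was not called. Without the Ngp cells its ratio was 0.724, which is past 1.5-fold. The 7 platelet markers summed to 2443 CPM in metastasis blood neutrophils and 831.9 CPM in sham ones. In cells with no Pf4 or Ppbp UMI the ratios were 0.345 for Il18rap, 2.002 for Il18bp, -1.301 for Il18 and -2.886 for Il1rl1. The Il18bp ratio rested on 74 and 3 UMIs, that of Il18 on 10 and 4 and that of Il1rl1 on 5 and 6. Il18 and Il1rl1 were thus under the 20 UMIs of a measured gene.

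Blood monocytes had neither measured gene called (background 11.2%); Il18 was at 39.7 against 26.7 CPM (0.57, 0.10 to 1.04), just under 1.5-fold. Of 3 measured genes in blood basophils, Il1rl1 was called higher (background 12.9% in either direction and 4.91% higher), at 287.1 against 79.95 CPM (1.84, 0.54 to 3.17) from 12 and 11 UMIs, while Il18r1 stood at -0.54 and Il18rap at 0.34. The median log2 ratio over well-counted genes was itself -0.13 in lung neutrophils, -0.11 in lung basophils, -0.19 in blood neutrophils, 0.10 in blood NK cells and 0.23 in blood basophils. In B cells of blood, Il18 was lower in metastasis, at 9.87 against 18.95 CPM (-0.94, -1.42 to -0.50; background 6.03% in either direction and 3.28% lower).

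**Figure D5:**
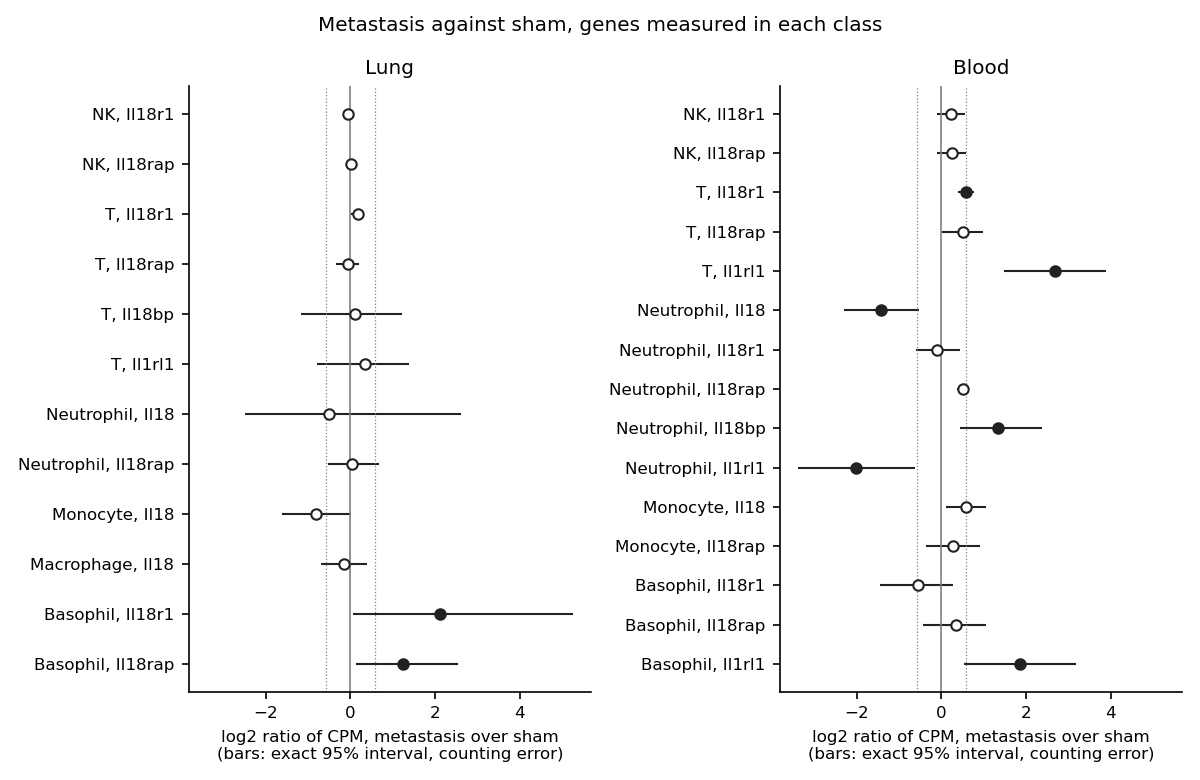
Log2 ratio of CPM, metastasis over sham, for each gene with at least 20 UMIs over the pair and some counts in both libraries, in lung (left) and blood (right), with exact 95% intervals from counting error; filled points are called and dotted lines mark 1.5-fold. No point of NK cells or lung T cells is called, and intervals are wider in blood than in lung NK cells. The called points are in basophils, blood T cells and blood neutrophils.

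Lung was compared with blood within each arm, where tissue and cell isolation differ together and cannot be told apart. Il18r1 of NK cells was lower in lung than in blood, called in the metastasis arm (377.6 against 665.6 CPM; -0.82, -1.13 to -0.49; background 8.03%) and under 1.5-fold in the sham arm (392.7 against 567.9 CPM; -0.53, -0.67 to -0.39; background 15.3%). Il18rap of NK cells differed by 0.09 and 0.33 and was not called. Il18rap of T cells was higher in lung in the sham arm, at 31.6 against 15.8 CPM (1.00, 0.77 to 1.23; background 20.6%), and stood at 0.41 in the metastasis arm. Il18bp of T cells was also called higher in lung in the sham arm, at 1.74 against 0.813 CPM (1.10, 0.06 to 2.24; 30 against 11 UMIs). Il18rap of neutrophils was lower in lung in the metastasis arm, at 235 against 446.2 CPM (-0.93, -1.06 to -0.80), where 44.6% of all measured genes were called, and stood at -0.46 in the sham arm. In those metastasis neutrophils Il18 (1.42) and Il1rl1 (1.96) were called higher in lung and Il18bp (-0.92) lower, and the median gene stood at -0.33. Il18 of monocytes was higher in lung in the sham arm, at 46.2 against 26.7 CPM (0.79; background 14%), and was not called in the metastasis arm (-0.60; background 17.3%). Il1rl1 of T cells was lower in lung in the metastasis arm (-1.55; background 16.3%), and the background of the sham neutrophils was 21.4%. Of basophil genes 0 of 3 were called in the metastasis arm (background 26.6%), and Il18r1 was lower in lung in the sham arm from 2 against 72 UMIs (-2.82; background 23.1%).

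The other genes of the pathway, 59 in lists of ligands and coreceptors, release of IL-18, signalling, targets, feedback and regulators of the receptors, were read by the same rule, metastasis over sham. In lung NK cells the list's median log2 ratio was 0.06 beside -0.01 over all measured genes. Of 45 measured list genes 4 were called, all higher (background 2.14% higher and 1.59% lower). These were Ifng, the main product of IL-18 action in NK cells, at 144 against 73.4 CPM (0.97), the chemokine Ccl3 (0.90), the adaptor Myd88 (0.66) and the NF-kappa B inhibitor Nfkbia (0.63). In lung T cells 4 of 51 were higher and 0 lower (background 2.94% higher and 1.11% lower, median 0.14 beside 0.05). They were the decoy receptor Il1r2 (2.47, 17 against 11 UMIs), the growth factor Areg (1.58), Gzmb (0.81) and Casp4 (0.68). Ifng of lung NK cells stood higher in metastasis, while the intervals of Il18r1 and Il18rap in these cells leave out a 1.5-fold difference. Whether IL-18 had a part in the Ifng level was not tested.

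In lung neutrophils 0 of 35 were higher and 1 lower (background 1.95% higher and 5.05% lower, median 0.02 beside -0.10). The gene called lower was the kinase Irak2 (-0.95). In lung monocytes 4 of 38 were higher and 2 lower (background 2.78% higher and 3.63% lower, median -0.07 beside 0.00). The 4 with the largest ratios were Ccl4 at 1.95, Ccl5 at -1.38, the inflammasome sensor Nlrc4 at 0.95 and Il1r2 at 0.83. In lung macrophages 1 of 21 was higher and 3 lower (background 3.6% higher and 4% lower, median -0.21 beside -0.03). They were Rora (1.69), Areg (-1.76), Myd88 (-1.51) and the sensor Nlrp3 (-0.78). Lung basophils had 5 of 16 higher and 1 lower (background 8.51% higher and 7.91% lower, median 0.17 beside 0.07). The largest ratios were those of Il4 (1.89, 43 against 5 UMIs), Gzmb (-1.52), Ccl4 (0.93) and Nfkbia (0.90).

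In blood T cells 8 of 50 were higher and 1 lower (background 3.41% higher and 3.32% lower, median 0.04 beside 0.02). These were led by the cytokine signalling inhibitors Socs3, at 123.5 against 30.4 CPM (2.02), and Socs1 (1.39), then the death ligand Fasl (1.09) and the transcription factor Tbx21 (1.05). In blood NK cells 3 of 39 were higher and 2 lower (background 2.35% higher and 2.64% lower, median 0.06 beside -0.03). Map3k7 stood at -2.58 from 1 UMI in metastasis, Xcl1 at -1.32, Ccl3 at 0.92 and Irak2 at 0.82. Blood neutrophils had 2 of 36 higher and 11 lower (background 10.2% higher and 17.8% lower, median -0.34 beside -0.12). Tab1 stood at 2.11 with 2 UMIs in sham, the feedback gene Tnfaip3 at -1.93, the sensor Aim2 at -1.88 and Traf3 at -1.65. Blood monocytes had 1 of 37 higher and 6 lower (background 4.12% higher and 7.07% lower, median -0.18 beside -0.03). Ccl5 stood at -7.13 from 1 against 216 UMIs, Il12rb2 at -1.76, Ccl4 at -1.48 and Traf3 at -0.95. In blood basophils 0 of 16 were called (background 12.9% in either direction, median -0.18 beside 0.03). The list counts are to be read beside these backgrounds, which are shares of all measured genes of the class.

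The genes with the most similar pattern were sought over 24 profiles of a class in a library with at least 100 cells, by Pearson correlation of log2(CPM + 5) among 10737 genes. The profiles share libraries and depth, so these values are descriptions. Il18 was most like Irf5 (0.958), Rassf4 (0.956), Pld4 (0.95), Tns3 (0.940) and Cybb (0.933). Il18r1 was most like Sytl3 (0.937), Cst7 (0.934), Eya2 (0.932), Sla2 (0.929) and Zdhhc15 (0.924). Il18rap had Ctsd (0.917), Vsig10 (0.899), Chst11 (0.892), Mcam (0.885) and Elovl7 (0.875). The 5 closest genes of the receptor chains were different genes by this measure, and Il18r1 and Il18rap had a correlation of 0.643 with each other. Il18bp was most like Dop1b (0.896), Slc6a13 (0.854), Entpd3 (0.841) and the stefin genes Stfa2 (0.832) and Cstdc5 (0.821), which have near-identical copies and are uncertain. Il1rl1 was most like Lypd6b (0.759), Fas (0.727), Bmpr1a (0.698), Nfkbiz (0.661) and Resf1 (0.651), with basophils too few to enter. These names depended on the measure. With Spearman correlation the closest genes were Tns3 (0.956) for Il18, Ifitm10 (0.916) for Il18r1, Gpc1 (0.946) for Il18rap, Mmp25 (0.786) for Il18bp and Bmpr1a (0.647) for Il1rl1. With profiles of at least 20 cells, which let basophils in, they were Pla2g15 (0.873), Cst7 (0.926), Nbeal2 (0.901), Stfa2 (0.683) and Slc18a2 (0.870). Il1rl1 had the lowest closest value of the 5 genes over profiles of 100 cells, and Il18bp over profiles of 20 cells.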

How the data were processed

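Raw UMI counts per gene and barcode were used as the authors deposited them, in 1 matrix per library and with no normalization. The submitters' processing notes name the build GRCm38.p6 and the tools Seurat 4.3.0.1, R 4.3.1 and Cell Ranger 7.0.0; what each did, and whether counting used strand, is not given there. Per the labels' protocols, lungs were filtered and passed over Live/Dead columns and blood cells were taken by density centrifugation; how CD45+ cells were enriched is worded differently across the labels.

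Cells with at least 200 genes, at most 10% mitochondrial UMIs and a Scrublet doublet score of 0.3 or less were kept (expected rate 10%, scanpy 1.11.5), which removed 394, 689, 114 and 755 doublets. A cell joined the class of which it held at least 3 markers and the strictly highest fraction of the list; NK cells had no Cd3d, Cd3e or Cd3g UMI. UMIs were summed per class and library and scaled to CPM without haemoglobin. With 1 library per group no p-value was computed. Levels carry exact Poisson, shares exact Clopper-Pearson and ratios exact conditional binomial 95% intervals (scipy 1.17.1, numpy 2.4.6, pandas 2.3.3, Python 3.11.15), all for counting error only; a share of 0 is given the limit of 3 counts. The scripts were tested on simulated data.

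The 5 genes and all lists were chosen with earlier results of these data known. Named genes were the 5 members, the 5 genes most like each by correlation (at least 200 UMIs; gate markers, ribosomal, mitochondrial, haemoglobin and antigen receptor genes left out), and all called pathway genes of a class up to 4, otherwise the 4 with the largest ratio. Alternatives changed the gate, cell filters, haemoglobin, scaling, thinning, threshold and pseudocount. A planned further split of the CD8 and CD4 T cells is not reported here.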

Additional observations from a re-analysis of the deposited data

Results flagged for a closer look

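In the gates other than the immune classes of the report's metastasis against sham comparisons, and in lung B cells, 4 values were called higher in the metastasis library and 5 were called lower. Il18r1 in the B cell gate of metastasis lung was at 6.35 CPM, against 3.51 CPM in sham lung (log2 ratio 0.86, 23 against 37 UMIs), where 3.32% of all measured genes were called in either direction. Il18bp in the erythroid gate of metastasis blood was at 15.6 CPM from 45 UMIs, against 0 UMIs in sham blood, a ratio with an exact 95% lower limit of 3.64; 74.8% of all measured genes were called in that gate, 12.2% as higher. Il18rap was at 140.3 CPM in the metastasis blood cells that no gate took, against 52 CPM in sham blood (1.43), with 26% of genes called. Il18rap in the platelet gate of metastasis blood was at 242.7 CPM, against 50.7 CPM in sham blood (2.26, 399 against 53 UMIs), with 27.6% of genes called.

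The values called lower came from the same kinds of gate. Il18r1 in the erythroid gate was at 19.2 against 72.7 CPM in lung, where 78.7% of genes were called, and at 8.66 against 53.4 CPM in blood. Il18rap in the lung erythroid gate was at 23.9 against 59.5 CPM. Il18 was at 12.2 against 25.8 CPM in the platelet gate and at 1.19 against 8.63 CPM in the lung cells that no gate took, where 15.5% of genes were called. Neither the share of other cells in these gates nor their part in the values was tested.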

How the results depend on the processing

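No paired analysis was possible because the labels give no replicate numbers and each group is 1 library. No log2 ratio changed its sign past the threshold. Of the metastasis against sham ratios recomputed under alternatives, 319 moved by less than the counting interval and 7 moved by more; of the lung against blood ratios the numbers were 104 and 2. Il18rap in blood neutrophils, 0.51 as reported, was 0.345 in cells with no Pf4 or Ppbp UMI, 0.676 without the 20 most abundant genes, 0.701 when the median gene ratio set the scale and 0.724 without Ngp cells, an alternative chosen after seeing the data, as were profiles of at least 20 cells and cells of at least 1000 UMIs. The values of 0.676, 0.701 and 0.724 are past 1.5-fold, so whether Il18rap reached that threshold in blood neutrophils depended on the processing. Without Ngp cells Il18bp in blood neutrophils was 0.165 and Il18 -0.264. Il18r1 in blood T cells ranged from 0.503 to 0.646 and was under 1.5-fold with gates of 2 or 4 markers, without the 20 most abundant genes and under that scale. At a 2-fold threshold the called pathway genes in lung were 0 in NK cells, 2 in T cells, 0 in neutrophils and 2 in monocytes. In blood they were 2 in NK cells, 4 in T cells and 3 in monocytes. At 1.5-fold with the median gene ratio as scale, 2 were called in lung neutrophils, against 1 as reported. Of 48 shares of cells, 44 moved with the thinning, as did 13 of 16 shares of cells with both receptor chains. Of 15 lists of the 5 most similar genes, 13 kept 3 or fewer of their genes under another pseudocount, Spearman correlation or smaller profiles. Classes under 50 cells (macrophages, basophils, metastasis blood NK cells) limit what depth can show.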
